A study of Mus musculus with 6 samples.

Results

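Pleiotrophin (Ptn) and midkine (Mdk) with the receptor genes Ptprz1, Alk and Sdc3 were described in tissue next to the dorsal aorta of the mouse embryo. These 5 genes were taken by symbol from the 24675 genes with 1 platform symbol, and each had 1 probe set. They were selected as a ligand and receptor family, and chosen by name with the ventral minus dorsal log2 values of these 6 arrays known, so their ventral minus dorsal differences are given as a description, with no test, and the choice used no numerical threshold. The study measured RNA from C57Bl/6 embryos at embryonic day 10.5 on Affymetrix arrays, in 3 arrays of dorsal tissue (the strip from the notochord to the roof of the aorta) and 3 arrays of ventral tissue (below the aorta). Laser microdissection cut both regions by position from cryosections of the same embryos, with no genetic change and no drug treatment named for either group. Between 200 and 1000 pg of RNA per sample was copied and amplified before labelling.

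Pleiotrophin and midkine are the members of a small family of secreted growth factors that bind heparin. They act through receptors that carry or bind sulfated sugar chains: Ptprz1 encodes a receptor tyrosine phosphatase with chondroitin sulfate chains, which pleiotrophin binding inhibits, Alk encodes a receptor tyrosine kinase, and Sdc3 encodes syndecan-3, a cell-surface proteoglycan with heparan sulfate chains. In the adult bone marrow, pleiotrophin is known as a factor of the vascular niche that supports blood stem cells.

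The ligand Ptn had the largest regional difference of the 5 genes, with a higher mean on the ventral side. Dorsal arrays 1, 2 and 3 read 8.87, 7.34 and 6.23 for its log2 signal, and the ventral arrays of the same numbers read 9.61, 8.45 and 8.43. Ventral array 1 was the highest and dorsal array 3 the lowest, and the groups overlapped because dorsal array 1 lay above ventral arrays 2 and 3. The dorsal mean was 7.48 ± 1.33 and the ventral mean 8.83 ± 0.68 (SD, n = 3 each). The fitted ventral minus dorsal difference was 1.35 ± 0.31 on the log2 scale (SE), which corresponds to a 2.55-fold higher ventral signal. This SE comes from a fit with the replicate number as a block, a pairing that the labels and arrays do not settle. It was 0.64 without the block. Both are moderated SEs from limma, in which the variance of a gene is drawn towards a value shared by all genes. For a gene as variable as Ptn this makes the SE smaller than its own spread alone would give. Within numbers 1, 2 and 3 the differences were 0.74, 1.12 and 2.20, so the ventral array was higher in each. In fits without the replicate block the difference was 0.73 without dorsal array 3 and 2.05 without dorsal array 1. In bulk tissue, fewer cells of a type and less RNA per cell cannot be told apart.

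**Figure D1:**
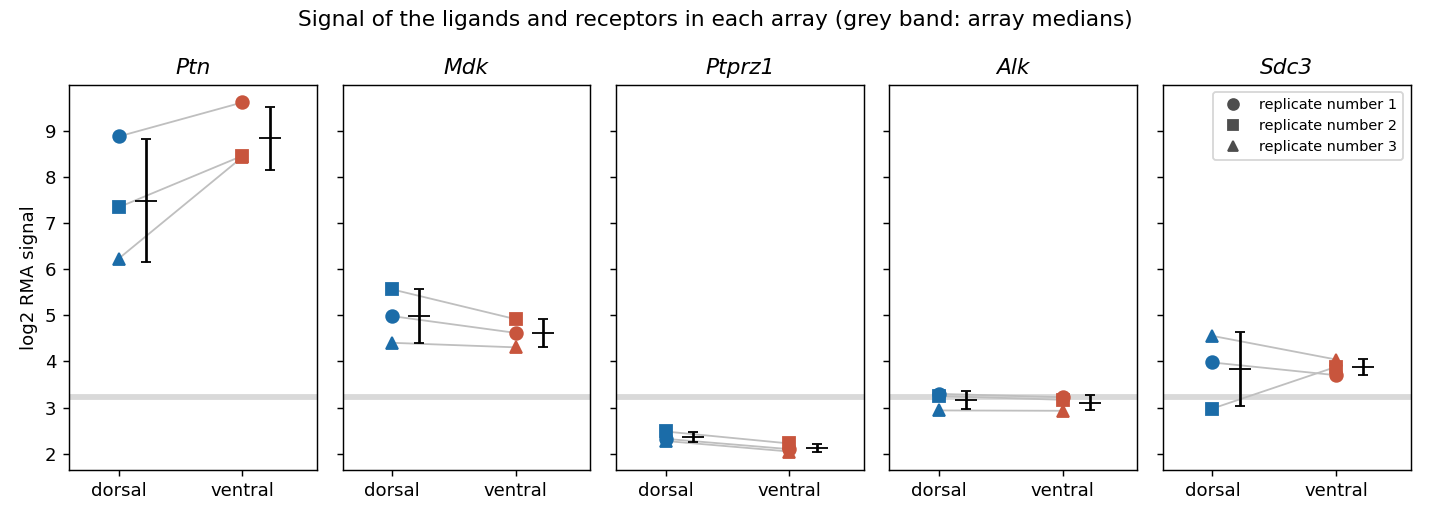
Log2 RMA signal (vertical axis) of Ptn, Mdk, Ptprz1, Alk and Sdc3 in 3 dorsal (blue) and 3 ventral (red) arrays, with symbols and grey lines for arrays of equal replicate number, black bars for mean ± SD and a grey band for the array medians of 3.20 to 3.27. Ptn lies far above the band in all 6 arrays, and Ptprz1 lies below it in all 6.

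Midkine, the other ligand, had the opposite sign. Dorsal arrays 1, 2 and 3 read 4.98, 5.56 and 4.40 for Mdk, and ventral arrays 1, 2 and 3 read 4.62, 4.91 and 4.31. Dorsal array 2 was the highest and ventral array 3 the lowest, and the groups overlapped. The dorsal mean was 4.98 ± 0.58 and the ventral mean 4.61 ± 0.30 (SD, n = 3 each), and the difference of -0.37 ± 0.19 (SE) was smaller than the dorsal SD. Without the block its SE was 0.31. The ventral array was lower within each number, with differences of -0.36, -0.65 and -0.10. In fits without the block, Mdk differed by -0.080 without dorsal array 2 and by -0.66 without dorsal array 3. Within an array, the log2 signal of Ptn minus that of Mdk was 3.89, 1.78 and 1.82 for dorsal arrays 1, 2 and 3, compared with 4.99, 3.54 and 4.12 for ventral arrays 1, 2 and 3. This within-array difference was larger in the ventral array of each number, while dorsal array 1 exceeded ventral array 2.

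The phosphatase receptor gene Ptprz1 had low signals throughout. Its log2 signal was 2.32, 2.48 and 2.28 dorsally and 2.10, 2.22 and 2.05 ventrally, in the order of the numbers. Every dorsal array lay above every ventral array, and all 6 values lay below the median of their array. The means were 2.36 ± 0.11 and 2.13 ± 0.09 (SD, n = 3 each), and the difference was -0.24 ± 0.16 (SE). This moderated SE is larger than the spread of Ptprz1 alone would give. After cyclic loess normalisation the difference was -0.084.

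The kinase receptor gene Alk read 3.30, 3.25 and 2.94 dorsally and 3.23, 3.17 and 2.93 ventrally. Both arrays numbered 3 were the lowest of their group, and the groups overlapped. The dorsal mean was 3.16 ± 0.19 and the ventral mean 3.11 ± 0.16 (SD, n = 3 each). The difference was -0.054 ± 0.17 (SE), and the within-number differences were -0.072, -0.081 and -0.0078. This moderated SE is larger than the within-number differences alone would give.

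The syndecan gene Sdc3 read 3.98, 2.98 and 4.55 dorsally and 3.70, 3.88 and 4.04 ventrally. The dorsal arrays held both the lowest and the highest value, and all 3 ventral arrays lay between them. The dorsal mean was 3.84 ± 0.80 and the ventral mean 3.88 ± 0.17 (SD, n = 3 each), with a difference of 0.039 ± 0.31 (SE). Its sign differed between numbers, at -0.28, 0.90 and -0.51, and without both arrays numbered 2 the difference was -0.39.

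**Figure D2:**
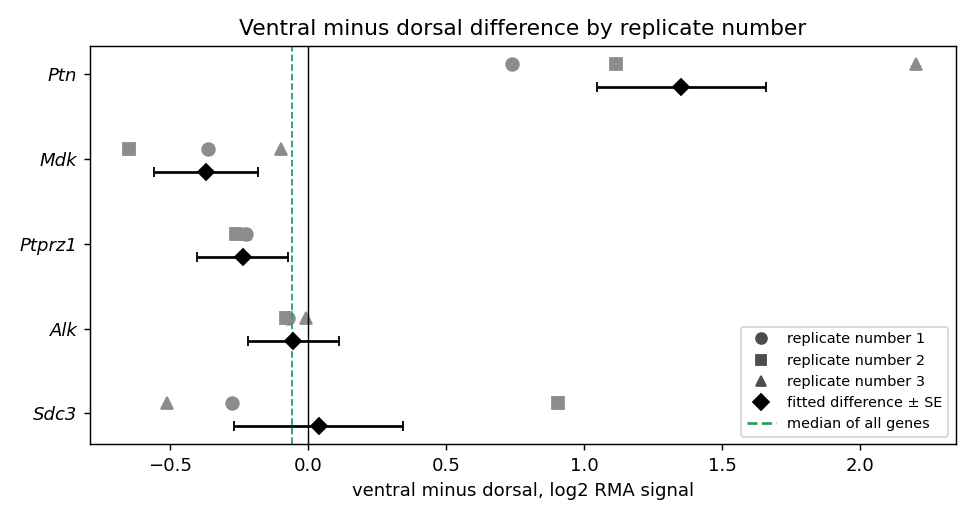
Ventral minus dorsal difference in log2 RMA signal (horizontal axis) for each gene, with grey symbols for the difference within each replicate number, black diamonds for the fitted difference ± SE and a green line for the median of all genes at -0.060. The Ptn points run from 0.74 to 2.20, the Mdk points from -0.65 to -0.10, and the Sdc3 points fall on both sides of 0.

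These differences sit in a table in which no gene was called. In limma, 0 of the 24675 genes passed an adjusted p of 0.05 (0% of all genes), and 2522 had an unadjusted p under 0.05. The groups did not overlap in 0 of the 5 genes in the ventral-higher direction, against 6.74% of all genes, and in 1 of the 5 (Ptprz1) in the dorsal-higher direction, against 12% of all genes. The ventral array was higher within each of the 3 numbers for 1 of the 5 genes (13.3% of all genes) and lower for 3 of the 5 (21.8% of all genes). Across all genes, 131 had a larger positive difference than Ptn. Among the 1108 genes with a mean log2 signal of at least 5, 46 had a difference at least as high, Ptn included.

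Ptn was also among the genes that varied most between arrays of the same tissue. The genes were chosen with their differences known, and a gene with a large difference can also have a large spread. The SDs are therefore a description too. Its dorsal SD of 1.33 was exceeded by 0.948% of all genes and by 8.94% of the genes with a mean of at least 5, and its ventral SD of 0.68 by 3.29% and 18.0%. Mdk had dorsal and ventral SDs of 0.58 and 0.30, each above the median gene SDs of 0.26 and 0.18. Of the genes with a mean of at least 5, 34.0% had a larger dorsal SD than Mdk and 52.6% a larger ventral SD. Sdc3 had a dorsal SD of 0.80 and a ventral SD of 0.17, a difference in spread that was not tested. Alk (0.19 and 0.16) and Ptprz1 (0.11 and 0.09) stayed below those median gene SDs.

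How far each signal stood above that of silent genes was described with the 1088 olfactory receptor genes, which serve smell in the nasal epithelium. The signal of a probe set also depends on its probes, so this gives no abundance. Their 95th percentile lay between 4.59 and 4.90 in the 6 arrays. Ptn exceeded it in 6 of 6 arrays, and Mdk in 3 (dorsal arrays 1 and 2 and ventral array 2). Ptprz1, Alk and Sdc3 exceeded it in 0 of 6 arrays. The share of olfactory receptor genes with a mean at or above that of the gene was 71.2% for Ptprz1, 32.5% for Alk, 13.8% for Sdc3 and 4.04% for Mdk. The receptor values therefore do not show that these transcripts were present or absent, and a difference near 0 does not show equal levels. A filter at the 25th percentile of mean signal kept 4 of the 5 genes and left out Ptprz1, and a filter at the median kept 3 and also left out Alk.

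The upstream sequences of Ptn and Sdc3 are shown as those of the gene with the largest regional difference and of a receptor gene whose difference was near 0, both with windows that lie outside the annotated gene. Promoter entries from RefSeq (GRCm38.p6) matched 4 of the 5 genes, and Mdk had none. The 250 bases before the listed start are written 5′ to 3′ on the strand of the gene, with each CG dinucleotide in capitals, at chr6:36810180-36810429 (minus strand) for Ptn and chr4:130792287-130792536 (plus strand) for Sdc3.
Ptn: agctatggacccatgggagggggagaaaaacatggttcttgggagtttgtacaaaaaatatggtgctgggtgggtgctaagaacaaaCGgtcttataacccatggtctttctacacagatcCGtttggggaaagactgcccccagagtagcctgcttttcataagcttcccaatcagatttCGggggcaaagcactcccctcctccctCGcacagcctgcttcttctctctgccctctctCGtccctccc
Sdc3: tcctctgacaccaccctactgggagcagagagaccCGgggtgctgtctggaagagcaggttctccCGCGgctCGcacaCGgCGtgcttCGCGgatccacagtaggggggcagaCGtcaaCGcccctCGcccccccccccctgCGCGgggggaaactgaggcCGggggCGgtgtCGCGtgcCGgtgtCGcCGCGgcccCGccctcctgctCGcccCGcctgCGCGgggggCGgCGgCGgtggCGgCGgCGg
The Ptn window held 5 CG dinucleotides, close to the median of 6 over 32851 promoter windows of this length, and had a GC content of 52.0%. The Sdc3 window held 32, a number reached by 4.58% of all windows, with a GC content of 76.4%. Ptprz1 had 22 and Alk 23 by the same count, but the Ptprz1 window lies partly and the Alk window wholly within the span annotated to its gene, so these are not only bases upstream of the gene. The TATA box letters TATAAA, searched on both strands, were in none of the 4 windows and in 12.4% of all windows. The GC box letters GGGCGG, a match for Sp factors, were in the windows of Sdc3, Ptprz1 and Alk but not Ptn, and in 32.7% of all windows on either strand. Such matches describe the letters of 1 listed start per gene, and say nothing about binding.

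Relatives of the receptors showed small differences. The list held Ptprg, the closest relative of Ptprz1, Ltk, the kinase related to Alk, and the syndecans Sdc1, Sdc2 and Sdc4. In limma 0 of 5 passed, with adjusted p between 0.738 and 0.965, and the median difference was -0.027, against -0.060 for all genes, of which 58.0% had a negative difference. Sdc4 averaged 3.22 ± 0.25 dorsally and 3.06 ± 0.22 ventrally, and Sdc1 3.72 ± 0.16 and 3.87 ± 0.18 (SD, n = 3 each).

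Other proteins known to bind pleiotrophin or midkine divided about evenly by sign. None of 17 passed the limma threshold, 8 had a positive and 9 a negative difference, and the median was -0.042. Nrp1, the neuropilin co-receptor of semaphorins and VEGF, averaged 3.36 ± 0.26 dorsally and 2.92 ± 0.075 ventrally, a difference of -0.45 ± 0.18 (SE). Itgb1, the integrin beta chain shared by many matrix receptors, averaged 3.49 ± 0.25 and 4.11 ± 0.79, with ventral array 2 at 5.03 above the other ventral arrays at 3.65 and 3.66. Ncl, nucleolin, a nucleolar protein that also binds both ligands at the cell surface, is named after its values were seen as the brightest of the list. Its levels were 8.83 ± 0.26 and 8.99 ± 0.21, a difference within the spread between arrays.

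Other ligands of the receptors were measured in 9 of 9 listed genes, and 0 passed in limma. Of these 9, 6 had a negative difference, against 58.0% of all genes, and the median was -0.15. Alkal1, which encodes a secreted activating ligand of the Alk kinase, read 3.03, 3.13 and 3.44 dorsally and 2.26, 2.18 and 2.55 ventrally. All dorsal arrays lay above all ventral arrays, and the signal was below the array median in every array but dorsal array 3. The difference was -0.87 ± 0.17 (SE), with a limma adjusted p of 0.378. L1cam, a neural adhesion molecule, averaged 4.28 ± 0.22 dorsally and 3.69 ± 0.23 ventrally, and the limma adjusted p of its difference of -0.59 was 0.482.

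Substrates and signalling partners of the receptors were measured in 16 of 17 listed genes, with 0 passing. Negative differences were found for 12 of 16, against 58.0% of all genes, and the median was -0.16. Arhgap35, which encodes a substrate of the Ptprz1 phosphatase, read 4.18, 3.80 and 3.55 dorsally and 2.97, 2.77 and 2.82 ventrally. The groups did not overlap, and the difference was -0.99 ± 0.18 (SE) with a limma adjusted p of 0.378. Dlg4, a scaffold protein of synapses, averaged 4.27 ± 0.33 and 3.74 ± 0.17, with a limma adjusted p of 0.464.

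Enzymes that build and sulfate heparan and chondroitin chains were measured in 25 of 26 listed genes, and 0 passed. Their differences were split, with 13 positive and 12 negative and a median of 0.010. Chpf, a chondroitin polymerising factor, read 4.45, 4.44 and 4.56 dorsally and 3.71, 3.83 and 3.79 ventrally. The groups lay apart by more than the range of either group, and the difference of -0.71 ± 0.17 (SE) had a limma adjusted p of 0.430. Hs6st2, a heparan sulfate 6-O-sulfotransferase, averaged 3.41 ± 0.26 dorsally and 2.69 ± 0.21 ventrally, with a limma adjusted p of 0.435.

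Over these 72 measured pathway genes, the limma adjusted p lay between 0.378 and 0.996 and the median difference was -0.076. All lists were chosen with earlier results of these data known, so the shares that follow are a description and were not tested. An unadjusted p under 0.05 was reached by 8 genes in the dorsal-higher direction, which is 11.1% of 72 against 5.9% of all genes, and by 1 gene in the ventral-higher direction against 4.32%. The groups did not overlap in 9 dorsal-higher genes, which is 12.5% against 12% of all genes, and in 2 ventral-higher genes, which is 2.78% against 6.74% of all genes. The signal exceeded the olfactory receptor percentile in all 6 arrays for 1 of the 72 genes, so most of the differences named here lie in the range of dim genes.

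**Figure D3:**
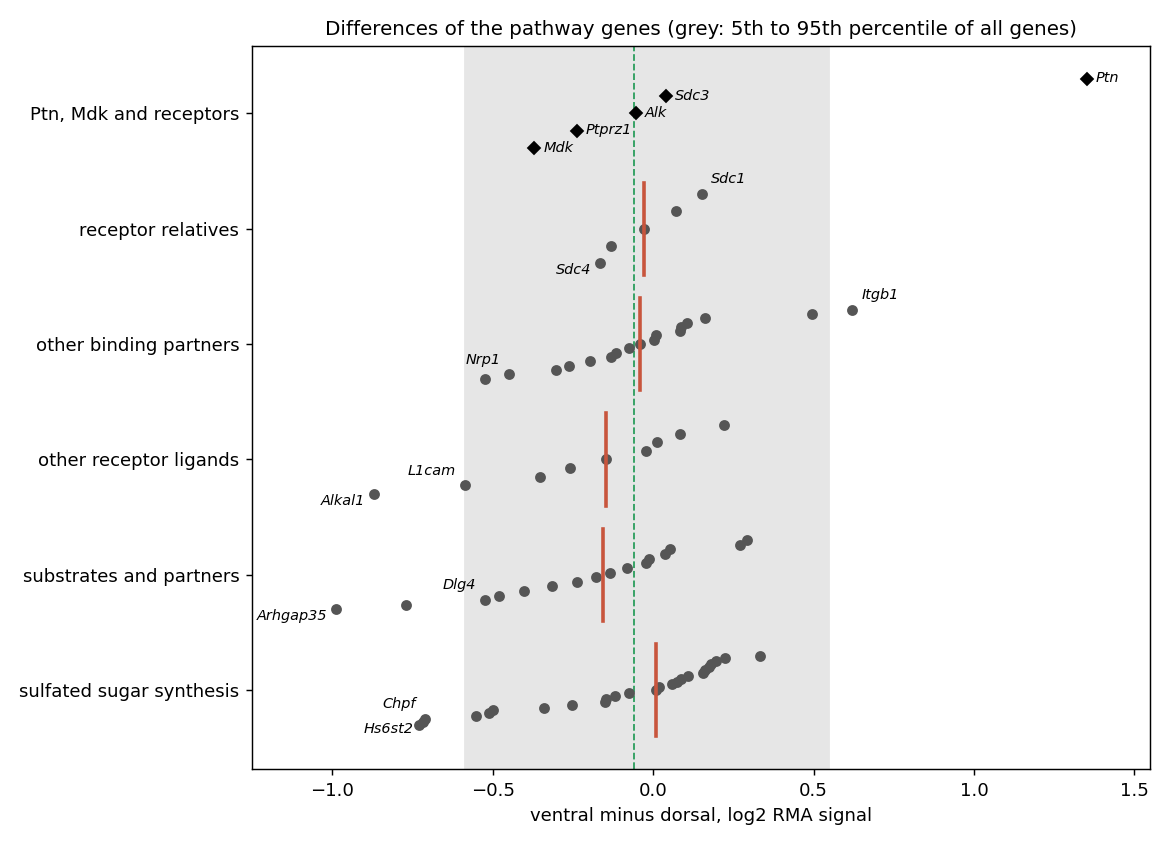
Ventral minus dorsal difference in log2 RMA signal (horizontal axis) of Ptn, Mdk and their receptors (diamonds) and of 72 further pathway genes (circles) by list, with red bars for list medians, a green line for the median of all genes and grey shading for their 5th to 95th percentile (-0.59 to 0.55). Ptn lies at 1.35, beyond the shading, and the named genes Arhgap35, Alkal1, Hs6st2 and Chpf lie on the dorsal side of it.

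Markers of the tissues around the aorta were read beside the Ptn values. Neural progenitors and radial glia, which are known to express pleiotrophin and Ptprz1, had 7 of 7 markers measured. None passed in limma, and 6 had a positive difference, against 42.0% of all genes. Of these 6, Pax6 (0.084), Hes5 (0.055) and Vim (0.019) were near 0. Sox1, another transcription factor of neural progenitors, went the other way with a difference of -0.38 ± 0.20 (SE) and was lower in the ventral array of each number. The summed linear signal of the list ran from 112 to 152 dorsally and from 148 to 405 ventrally, with overlap between the groups. Fabp7, the lipid-binding protein used as a radial glia marker, read 3.60, 3.82 and 3.79 dorsally and 5.64, 5.09 and 5.66 ventrally, without overlap. Sox2, a transcription factor of neural progenitors, was at 7.61 in ventral array 1, which was also the highest array for Ptn, and between 2.20 and 2.73 in the other 5 arrays. Dorsal array 1, the next highest for Ptn at 8.87, read 2.28 for Sox2. Within numbers 2 and 3, Sox2 was lower in the ventral array (2.20 against 2.57, and 2.72 against 2.73). Nes, the filament protein nestin, was at 5.29 in ventral array 1 and at 4.06 and 3.54 in ventral arrays 2 and 3. Vim, vimentin, a filament of progenitors and mesenchyme, had a difference of 0.019 ± 0.23 (SE), and was the 1 marker of the list above the olfactory receptor percentile in all 6 arrays. Without ventral array 1, in a fit with no block, the Ptn difference was 0.96. The part of neural tissue in the Ptn values was not tested.

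Sclerotome markers, from the mesenchyme that forms vertebrae, had 6 of 6 negative differences, against 58.0% of all genes, and 0 called. Their summed signal ran from 174 to 186 dorsally and from 84.1 to 124 ventrally, without overlap. In that sum Twist1 was the 1 marker with a mean of at least 5. The olfactory receptor percentile was exceeded in all 6 arrays by 0 of the 6 markers. Twist1, a mesenchymal transcription factor, read 6.62, 6.37 and 6.57 dorsally and 4.20, 5.71 and 5.46 ventrally. The groups overlapped for Pax1 (-0.025), Pax9 (-0.23) and Sox9 (-0.29). They did not overlap for 3 of the 6 markers, Twist1 included, against 12% of all genes in the dorsal-higher direction. Red-cell markers (5 of 6 measured) had 3 positive and 2 negative differences, against 42.0% and 58.0% of all genes, and 0 called. Their summed signals ran from 1286 to 4840 dorsally and from 433 to 8094 ventrally. Hba-x, an embryonic alpha-like globin, was lowest in ventral array 1 at 7.08, the array with the highest Ptn, and reached 11.1 and 12.1 in the dorsal and ventral arrays numbered 3. Hbb-y and Hbb-bh1 were also lowest in ventral array 1, at 7.07 and 7.03. The dim markers differed from this, with Alas2 highest there at 3.81 and Klf1 at 4.20 there, above its lowest value of 3.58. The part of these tissues in the Ptn values was not tested.

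In limma 0 markers were called in the other lists either. They covered neurons (6 of 6 measured), neural crest and Schwann precursors (4 of 6), sympathoadrenal cells (4 of 6), notochord (5 of 6), splanchnic and coelomic mesoderm (6 of 6), endothelium (6 of 6) and smooth muscle and pericytes (6 of 6). Differences were negative for 4 of 6 neuron, 5 of 5 notochord, 5 of 6 splanchnic and coelomic, and 5 of 6 smooth muscle and pericyte markers. The neural crest and sympathoadrenal lists each had 2 of 4 negative, and the endothelial list 2 of 6, against 58.0% of all genes. In the endothelial list, 0 of 6 markers exceeded the olfactory receptor percentile in all arrays, although both regions border the aorta. Its summed signal ran from 51.7 to 57.7 dorsally and from 50.5 to 64.8 ventrally.

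**Figure D4:**
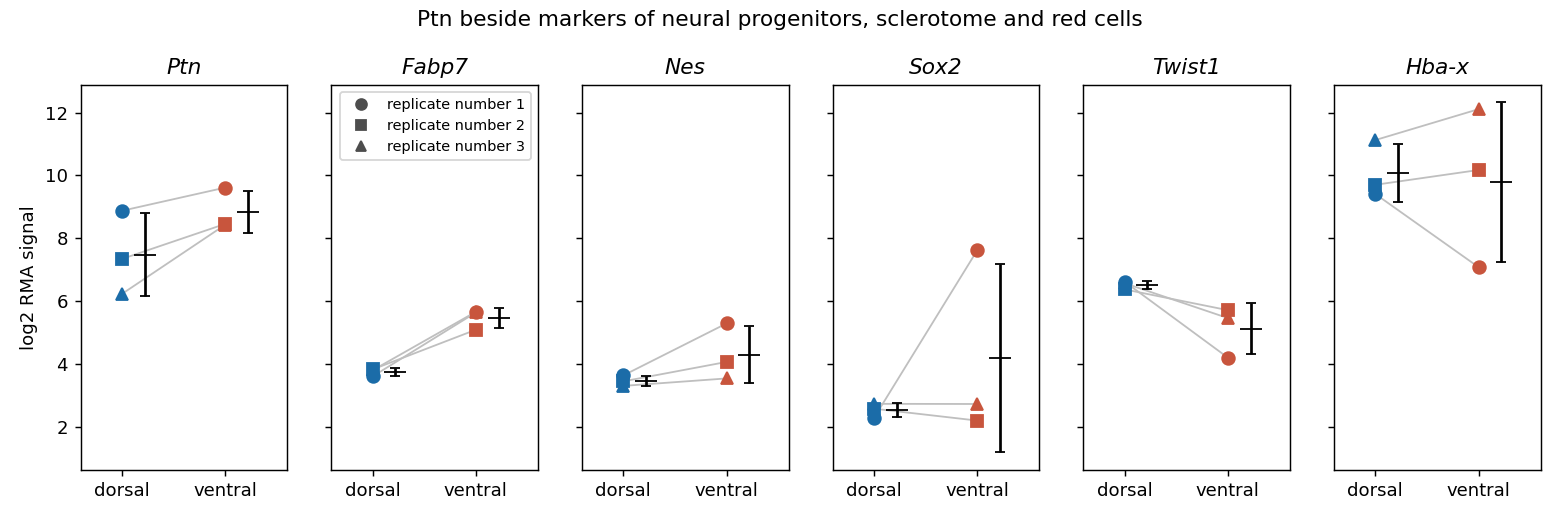
Log2 RMA signal (vertical axis) of Ptn, the neural progenitor markers Fabp7, Nes and Sox2, the sclerotome marker Twist1 and the globin gene Hba-x in dorsal (blue) and ventral (red) arrays, with symbols for replicate number and black bars for mean ± SD. Sox2 is at 7.61 in ventral array 1 alone, while Fabp7 is above 5 in all 3 ventral arrays. The neural progenitor markers shown were picked after their values were seen, from a list of 7. Of those not shown, Sox1 had a difference of -0.38, and Pax6, Hes5 and Vim lay near 0.

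Genes with a pattern most like that of Ptn were sought by Pearson correlation over the 6 arrays among 782 genes with a mean of at least 5. The arrays share embryos and amplification, so the values are a description. Dxo, a decapping enzyme, had r = 0.98, Spring1, a Golgi regulator of sterol signalling, r = 0.96, and Eif4g2, a translation initiation factor, r = 0.95. Of the 782 genes, 8 had r over 0.9. With 6 arrays and 782 genes, some r values this high can arise among unrelated genes, and how many was not estimated. Dxo ran from 4.48 in dorsal array 3 to 5.43 in ventral array 1, a much narrower range than that of Ptn (3.38 on the log2 scale). Mdk, Ptprz1, Alk and Sdc3 had means under 5 and were not compared in this way.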

How the data were processed

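Affymetrix mouse Gene 2.0 ST arrays measured RNA of 3 dorsal and 3 ventral samples. The authors deposited 1 value per probe set and array on a log2 scale, made with Affymetrix Expression Console and RMA, per the submitters' processing notes; versions and genome build are not given in the sources used here, and the log base was read from the values. Of 25429 probe sets, 24675 had 1 gene symbol, 0 had several and 754 had none and were left out. Ventral was compared with dorsal in limma 3.58.1 (R 4.3.3; lmFit, eBayes, two-sided, Benjamini-Hochberg over all 24675 genes, threshold 0.05) with the replicate number as a block and no filter on dim genes. Log2 differences are ventral minus dorsal. Every SE of a difference is the moderated SE of limma, with the variance of the gene drawn towards a value shared by all genes. It is smaller than the spread of the gene alone would give for Ptn and Sdc3, and larger for Ptprz1 and Alk.

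The labels place both regions in the same embryos without tying equal numbers to 1 embryo. Over all genes, deviations from group means correlated at 0.04, -0.01 and 0.06 between the arrays numbered 1, 2 and 3. Between arrays of unequal number the values ran from -0.06 to 0.03. Numbers 1 and 3 lay above that range and number 2 within it. Values this low do not settle whether equal numbers mark a pair, so an unblocked fit was also run. The p-values cover the spread among these 6 arrays only, and that number limits the precision.

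The 5 genes and all lists were chosen with earlier results of these data known. From each pathway list the text names the genes past the threshold or, with none, the 2 with the smallest unadjusted p. For genes with a mean of at least 5 it names the 3 most correlated genes, leaving out predicted, olfactory, vomeronasal and small RNA genes. Of the neural progenitor list all 7 markers are named, and those set beside Ptn were chosen after their values were seen. The sclerotome and red-cell lists are each represented by their brightest marker. Other markers of these lists were added after their values were seen, and no marker of the other lists is named. Scripts were tested on simulated data. Alternatives covered the block, median centring, cyclic loess, filters on dim genes, the variance model, array weights and left-out arrays.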

Additional observations from a re-analysis of the deposited data

How the results depend on the processing

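The pathway count stayed at 0 under all 16 alternatives. Over all genes the limma count moved from 0 to 1 without the replicate block, was 0 to 5 when both arrays of a number were left out (5 without replicate 1, 0 without replicate 2 and 2 without replicate 3) and 0 to 3 when single arrays were left out in fits that also had no block, against 1 for all arrays without it. The Ptn difference stayed positive in all 13 alternatives, from 0.73 without dorsal replicate 3 to 2.05 without dorsal replicate 1, both without the block, and its SE rose from 0.31 to 0.64 without the block. Mdk stayed negative in all 13, from -0.66 without dorsal replicate 3 to -0.080 without dorsal replicate 2, again without the block, and its SE rose from 0.19 to 0.31 in the unblocked fit of all arrays. Some of these settings could not change either sign. On all arrays the estimate is the same with and without the block. Leaving out a number averages the differences within the others, which were all positive for Ptn and all negative for Mdk. Ptprz1 stayed negative and moved to -0.084 after cyclic loess, the cause of which was not tested. Alk was -0.054 both with and without the block on all arrays. In unblocked fits it changed sign without dorsal replicate 1 (0.014) and without ventral replicate 3 (0.035), and with the block it stayed negative without either number (-0.045 and -0.077), while Sdc3 ran from -0.39 to 0.40 over the left-out arrays. Of genes with an unadjusted p under 0.05, 42.2% were ventral-higher, against 53.5% after median centring and 52.4% after cyclic loess. The receptor signals lay within the range of olfactory receptor genes, which limits what their differences can show.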
